A study of Mus musculus with 2 samples.

Results

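Granzyme A (Gzma), granzyme B (Gzmb), granzyme C (Gzmc), perforin (Prf1), Fas ligand (Fasl) and Nkg7, a membrane protein of cytotoxic granules, were followed through the skin cells of mice with an allergic ear inflammation. These 6 genes were taken by name from the 35208 gene rows of a single-cell expression matrix. The BALB/c mice were of 2 genotypes, wild-type (WT) and deficient in the chemokine receptor gene Ccr2 (Ccr2-/-), all with IgE-dependent chronic allergic skin inflammation (IgE-CAI). In this model every mouse is given TNP-specific IgE (300 µg) and has its ear skin challenged on the following day with TNP-OVA (10 µg). Ears were taken 3 and 5 days after challenge, and the cells of each genotype and day carried their own hashtag antibody. That gave 4 pools in 1 cDNA library, in this order throughout: WT at day 3, WT at day 5, Ccr2-/- at day 3 and Ccr2-/- at day 5. There was 1 pool per genotype and day, the number of mice in a pool was not stated, and the mice were males.

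Cytotoxic lymphocytes keep perforin and granzymes in secretory granules and release them onto a target cell. Perforin opens the target's membrane, and granzymes, which are serine proteases, then enter and cut their substrates. Granzyme B cuts after aspartate and can start the caspase cascade, whereas granzyme A cuts after basic residues. Fas ligand kills by another route, through the death receptor Fas on the target. Nkg7 takes part in the release of the granules. Natural killer (NK) cells and cytotoxic T cells are the classical carriers of this equipment.

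After filtering, 7118 cells were kept, with 1543 cells of WT day 3, 1037 of WT day 5, 2191 of Ccr2-/- day 3 and 2347 of Ccr2-/- day 5. As a check of the labels, Ccr2 itself stood at 501 and 535 CPM (reads per 1000000 reads of the summed cells) in the monocyte-macrophage-like cells of the WT pools and at 50.7 and 22.6 CPM in those of the Ccr2-/- pools, on day 3 and day 5. NK cells were cells of the lymphocyte clusters with NK genes (Ncr1, Klrb1c, Klre1 and Eomes together) at 100 CPM or more and CD3 genes under 100 CPM. T cells had CD3 genes at 100 CPM or more, and those with the gamma-delta genes Trdc and Cd163l1 at 100 CPM or more were set apart as gamma-delta T cells. In that order of pools there were 54, 24, 117 and 109 NK cells, 42, 13, 58 and 42 T cells without Trdc, and 11, 4, 30 and 25 gamma-delta T cells. None of the 6 genes was used in the clustering or in these gates. The NK cells had a median of 22765 to 25044 reads in the 4 pools. Trdc reads were also found in 17 of 54, 11 of 24, 40 of 117 and 50 of 109 NK cells, whereas at most 1 NK cell of a pool had a read of Cd163l1 or of Cd8a.

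Gzma lies on chromosome 13 (chr13:113093825-113100981, minus strand, build GRCm38), Prf1 on chromosome 10, Nkg7 on chromosome 7 and Fasl on chromosome 1. Gzmb and Gzmc lie side by side on chromosome 14 with Gzmd, Gzme, Gzmf, Gzmg and Gzmn, 7 granzyme genes within 144.6 kb (chr14:56117626-56262260), and 24.2 kb separate Gzmb from Gzmc. The 250 bases before the start site are shown for Gzma, Gzmb and Prf1, whose summed NK levels were higher in both Ccr2-/- pools than in both WT pools below. They are also shown for Gzmc, Gzmd and Gzme, which were read in few cells, many of them the same. The sequences are from RefSeq (GRCm38.p6) and run 5′ to 3′ towards the start site. Capitals mark the letters of 3 motifs searched on both strands, namely TGTGGT (RUNX), TGANTCA (AP-1) and CAGGAAG (ETS), with their reverse complements.
Gzma, chr13:113100982-113101231, minus strand: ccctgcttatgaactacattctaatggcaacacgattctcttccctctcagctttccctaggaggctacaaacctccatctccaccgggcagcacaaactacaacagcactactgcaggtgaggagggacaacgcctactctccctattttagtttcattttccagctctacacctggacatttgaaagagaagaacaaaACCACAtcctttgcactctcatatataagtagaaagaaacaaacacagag
Gzmb, chr14:56262335-56262584, minus strand: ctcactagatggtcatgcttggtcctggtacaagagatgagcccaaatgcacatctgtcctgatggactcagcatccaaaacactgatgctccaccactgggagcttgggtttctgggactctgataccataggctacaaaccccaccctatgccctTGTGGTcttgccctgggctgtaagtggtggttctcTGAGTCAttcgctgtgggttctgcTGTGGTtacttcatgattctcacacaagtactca
Prf1, chr10:61297586-61297835, plus strand: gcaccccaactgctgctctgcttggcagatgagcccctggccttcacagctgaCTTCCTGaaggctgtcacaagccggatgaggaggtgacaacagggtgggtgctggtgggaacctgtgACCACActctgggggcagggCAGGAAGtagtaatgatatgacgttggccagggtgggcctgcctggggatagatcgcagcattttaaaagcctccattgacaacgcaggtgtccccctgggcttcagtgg
Gzmc, chr14:56234658-56234907, minus strand: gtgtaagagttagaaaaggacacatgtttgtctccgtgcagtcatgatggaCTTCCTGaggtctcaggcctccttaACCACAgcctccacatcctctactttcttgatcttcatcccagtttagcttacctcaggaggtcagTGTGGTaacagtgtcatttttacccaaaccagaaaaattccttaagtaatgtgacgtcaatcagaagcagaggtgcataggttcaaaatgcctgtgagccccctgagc
Gzmd, chr14:56132594-56132843, minus strand: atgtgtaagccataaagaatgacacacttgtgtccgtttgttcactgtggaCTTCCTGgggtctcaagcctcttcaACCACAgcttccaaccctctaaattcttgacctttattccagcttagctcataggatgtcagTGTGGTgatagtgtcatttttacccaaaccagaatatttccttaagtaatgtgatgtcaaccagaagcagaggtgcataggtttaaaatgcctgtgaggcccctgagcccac
Gzme, chr14:56120626-56120875, minus strand: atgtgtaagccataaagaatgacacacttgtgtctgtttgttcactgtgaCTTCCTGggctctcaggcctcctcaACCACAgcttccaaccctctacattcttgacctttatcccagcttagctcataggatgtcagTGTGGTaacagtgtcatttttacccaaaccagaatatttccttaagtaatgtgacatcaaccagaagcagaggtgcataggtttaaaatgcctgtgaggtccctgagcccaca

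The RUNX letters stood in the windows of 5 of the 6 members, all but Fasl, and in 14.05% of 32851 promoter windows of the same length. In Gzmb they occurred at 2 places, from base -93 to -88 and from -34 to -29 before the start. The AP-1 letters occurred in Gzmb alone among the members and in 6.75% of all windows. The ETS letters occurred in Gzmc, Prf1, Fasl and Nkg7 and in 10.8% of all windows. A further motif, GGTGTGA (T-box), occurred in Nkg7 alone among the members and in 3.33% of all windows. In Gzmc, Gzmd and Gzme the RUNX letters occurred at 2 places and the ETS letters at 1 place in the same order, and their windows were 81.3% (Gzmc and Gzmd), 81.8% (Gzmc and Gzme) and 94.8% (Gzmd and Gzme) identical. Gzmb and Gzmc, neighbours on the chromosome, shared 47.9% of aligned bases, close to the 48.1% of Gzma and Gzmb, which lie on different chromosomes. A motif match is a description of letters, and binding was not measured.

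NK cells were the main carriers of the cytotoxic genes in this skin. They made up 304 of the 7118 kept cells and held 84.8% of all Gzma reads, 80.5% of Fasl, 79.7% of Prf1, 77.7% of Nkg7 and 68.3% of Gzmb reads. Gzmc was the exception, with 27.8% of its reads in NK cells, 41.3% in other lymphocytes, which passed neither gate, and 27.5% in T cells without Trdc. Gzmb was the member with the largest share outside the lymphocytes that could be placed in a named type, 7.14% in mast cell-like and 4.87% in basophil-like cells.

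**Figure D1:**
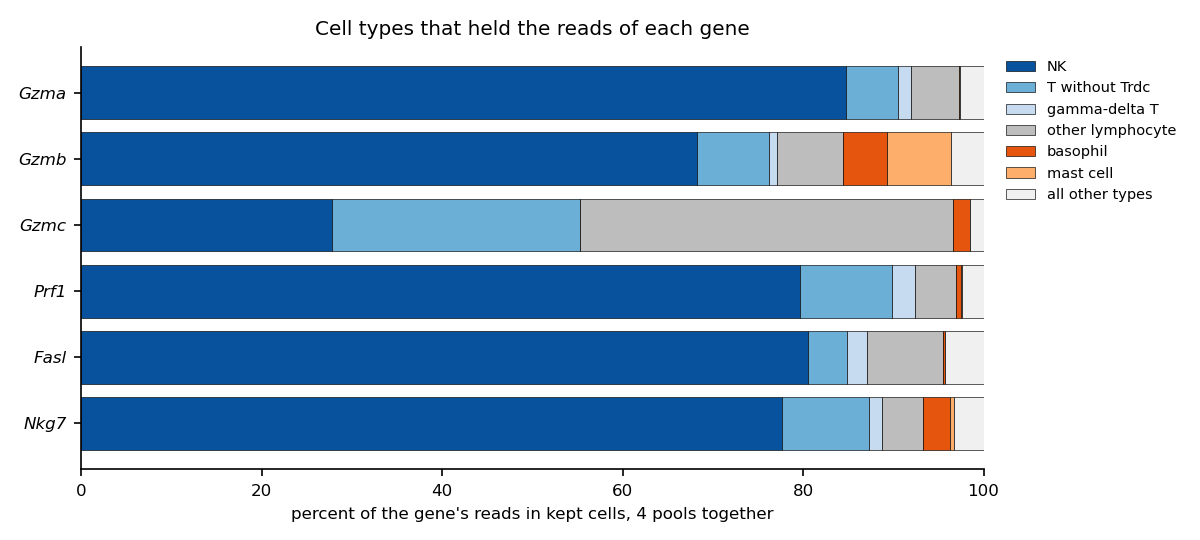
Share of each gene's reads held by each cell type, in percent of its reads in kept cells over the 4 pools together (x axis), 1 bar per gene. NK cells (dark blue) hold between 68.3% and 84.8% of the reads of every gene but Gzmc, of which they hold 27.8%.

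Gzma, the tryptase-like granzyme, was read in nearly every NK cell. Its level was 15139.9 CPM in WT day 3 (95% Poisson interval 14977 to 15304), 13640 CPM in WT day 5 (13357 to 13927), 26912 CPM in Ccr2-/- day 3 (26745 to 27080.1) and 25814 CPM in Ccr2-/- day 5 (25655 to 25974). A read of it was present in 53 of 54, 21 of 24, 117 of 117 and 108 of 109 NK cells. Both Ccr2-/- pools therefore lay above both WT pools, by 1.78 times on day 3 and 1.89 times on day 5. The median NK cell showed the same order, with 14580.2, 11661, 23046 and 18643 CPM. No single cell held more than 17.6% of the Gzma reads of NK cells in any pool. In fibroblast-like cells, which should not make it, Gzma stood at 5.08 to 7.57 CPM, and after each cell was thinned to 10000 reads 3.34% to 6.12% of them had a read, against 86.4% to 99.1% of NK cells.

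Gzmb, the aspartate-cutting granzyme, varied more than Gzma from pool to pool. In NK cells it stood at 2823 CPM in WT day 3 (2753 to 2894), 760.1 CPM in WT day 5 (694 to 830.2), 8567 CPM in Ccr2-/- day 3 (8473 to 8662) and 6652 CPM in Ccr2-/- day 5 (6571 to 6733). WT day 5 was the lowest pool and Ccr2-/- day 3 the highest, and the genotypes did not overlap. The ratio of Ccr2-/- to WT was 3.03 on day 3 and 8.75 on day 5. The share of NK cells with a Gzmb read was 88.9%, 70.8%, 94.9% and 92.7%, and the median cell held 1684, 280.4, 6592 and 3575 CPM. In WT day 5, with 24 NK cells, 1 cell held 32.0% of the reads, and without it the level was 559 CPM. Fibroblast-like cells stood at 2.92 to 3.98 CPM of Gzmb.

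From day 3 to day 5 the Gzmb level of NK cells stood at 0.269 of its day 3 value in WT and 0.776 in Ccr2-/-, a change between single pools that could not be tested. The Gzma of NK cells stood at 0.901 of its day 3 value in WT and 0.959 in Ccr2-/-, and Prf1 at 1.12 and 1.18 times its day 3 value. Over all kept cells together, which also counts how many NK cells a pool had, Gzma stood at 401, 174, 745 and 787 CPM and Gzmb at 101.3, 61.4, 262 and 257 CPM.

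Prf1, the pore former that lets granzymes into the target, spanned a narrower range. NK cells held 859.7 CPM (821.3 to 899.5), 967 CPM (892 to 1045), 1117 CPM (1083 to 1152) and 1314 CPM (1278 to 1350.2) of it. Both Ccr2-/- pools were above both WT pools, by 1.30 times on day 3 and 1.36 times on day 5, but the share of NK cells with a Prf1 read, 83.3%, 79.2%, 82.9% and 85.3%, had overlapping intervals in all pools. The median cell stood at 781, 641, 748 and 879 CPM, which overlapped between the genotypes. Fibroblast-like cells stood under 1 CPM in every pool.

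Fasl and Nkg7 showed no common order of the genotypes. Fasl stood at 137 (122 to 153), 213 (179 to 251), 194 (180.1 to 209) and 156 CPM (144 to 169) in NK cells, with a read in 57.4%, 45.8%, 55.6% and 49.5% of them. Nkg7 stood at 1331 (1283 to 1380.3), 1653 (1555 to 1755), 1522 (1482 to 1562) and 1201 CPM (1167 to 1236), and 94.9% to 100% of NK cells of a pool had a read. For both genes the CPM of the Ccr2-/- pool was higher on day 3 and lower on day 5. The median cell held 56.6, 0, 34.0 and 0 CPM of Fasl, so that neither the median nor the share of cells with a read was higher in the Ccr2-/- pool on day 3. About as many NK cells lacked a Fasl read as had one, and the highest cells reached 1386 to 2868 CPM in the 4 pools.

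**Figure D2:**
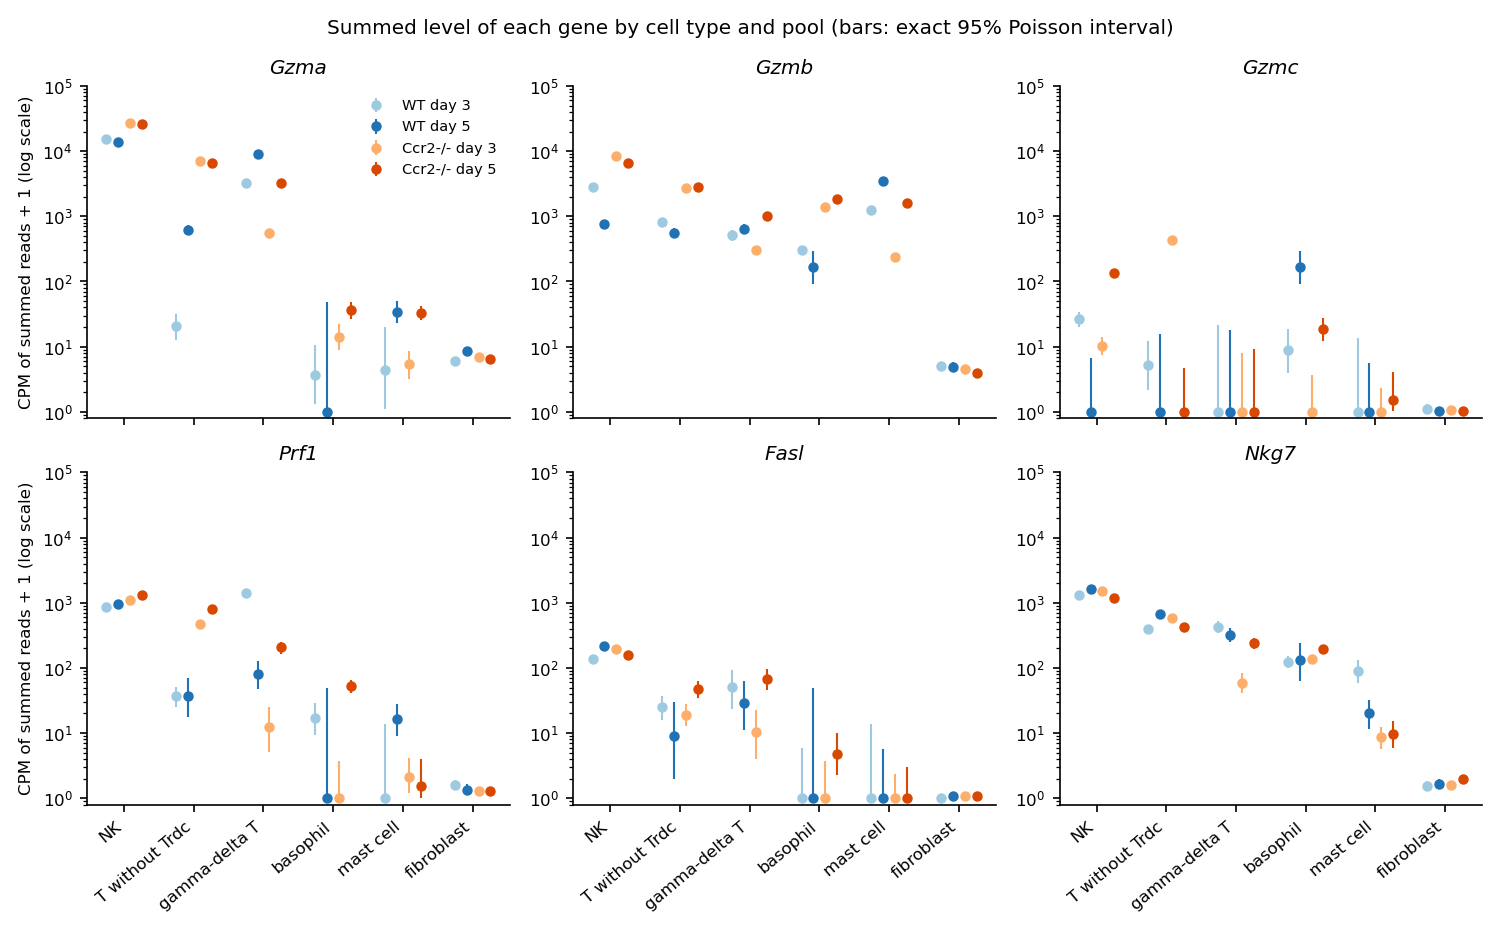
CPM of summed reads plus 1 (y axis, log scale) of each gene by cell type (x axis), with 1 point per pool and exact 95% Poisson bars. NK cells lie above the T and gamma-delta T cells in most panels, Gzma and Gzmb of NK cells are higher in both Ccr2-/- pools (orange and red) than in both WT pools (light and dark blue), and Gzmb alone stays above 100 CPM in basophil-like and mast cell-like cells of every pool.

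The genotypes were compared in NK cells with edgeR's quasi-likelihood test on 1 sum of reads per pool, with day as a covariate and Benjamini-Hochberg adjustment over 11708 genes. Gzma rose in Ccr2-/- NK cells, with a log2 fold change of 0.91 ± 0.080 (SE) and an adjusted p of 0.0191, and was the only gene called. The background was therefore 0.00854% of genes called higher and 0% called lower. Gzmb had the larger estimate, a log2 fold change of 2.40 ± 0.32, but its adjusted p was 0.133 in edgeR. In DESeq2 the adjusted p of Gzmb was 1.57e-08, where 4 of 21841 genes with at least 1 read were called higher and 11 lower. The Wald test of DESeq2 makes no allowance for the few residual degrees of freedom, so that its p cannot be set against that of edgeR. Prf1 had 0.45 ± 0.20, Fasl 0.07 ± 0.38, Nkg7 -0.10 ± 0.20 and Gzmc 1.77 ± 2.13, each with an edgeR adjusted p of 1. The Gzma call was lost under 6 alternatives, among them a stricter hashtag rule (adjusted p 0.768) and gates at 300 CPM (0.210), while its log2 fold change stayed between 0.84 and 1.13 in those 6. With 4 pools the fit had 1 residual degree of freedom, and its error is the spread between pools, whose mice were not counted.

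The pools were also compared one gene at a time by a two-sided exact permutation test, whose smallest possible p with 6 splits of the pools is 0.333. In NK cells both Ccr2-/- pools lay above both WT pools for Gzma, Gzmb and Prf1, each with an exact p of 0.333. Of 6774 genes with a mean of at least 20 CPM in NK cells, 19.1% were higher in both Ccr2-/- pools, so that 3 of 6 members is to be read against that share. Gzmc, Fasl and Nkg7 overlapped between the genotypes, with exact p values of 0.667, 1 and 0.667. Reads of the fibroblast gene Col1a1, which mark RNA carried over from other cells, stood at 1554, 214, 230.1 and 567 CPM in the NK cells, and their part in these values was not tested.

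**Figure D3:**
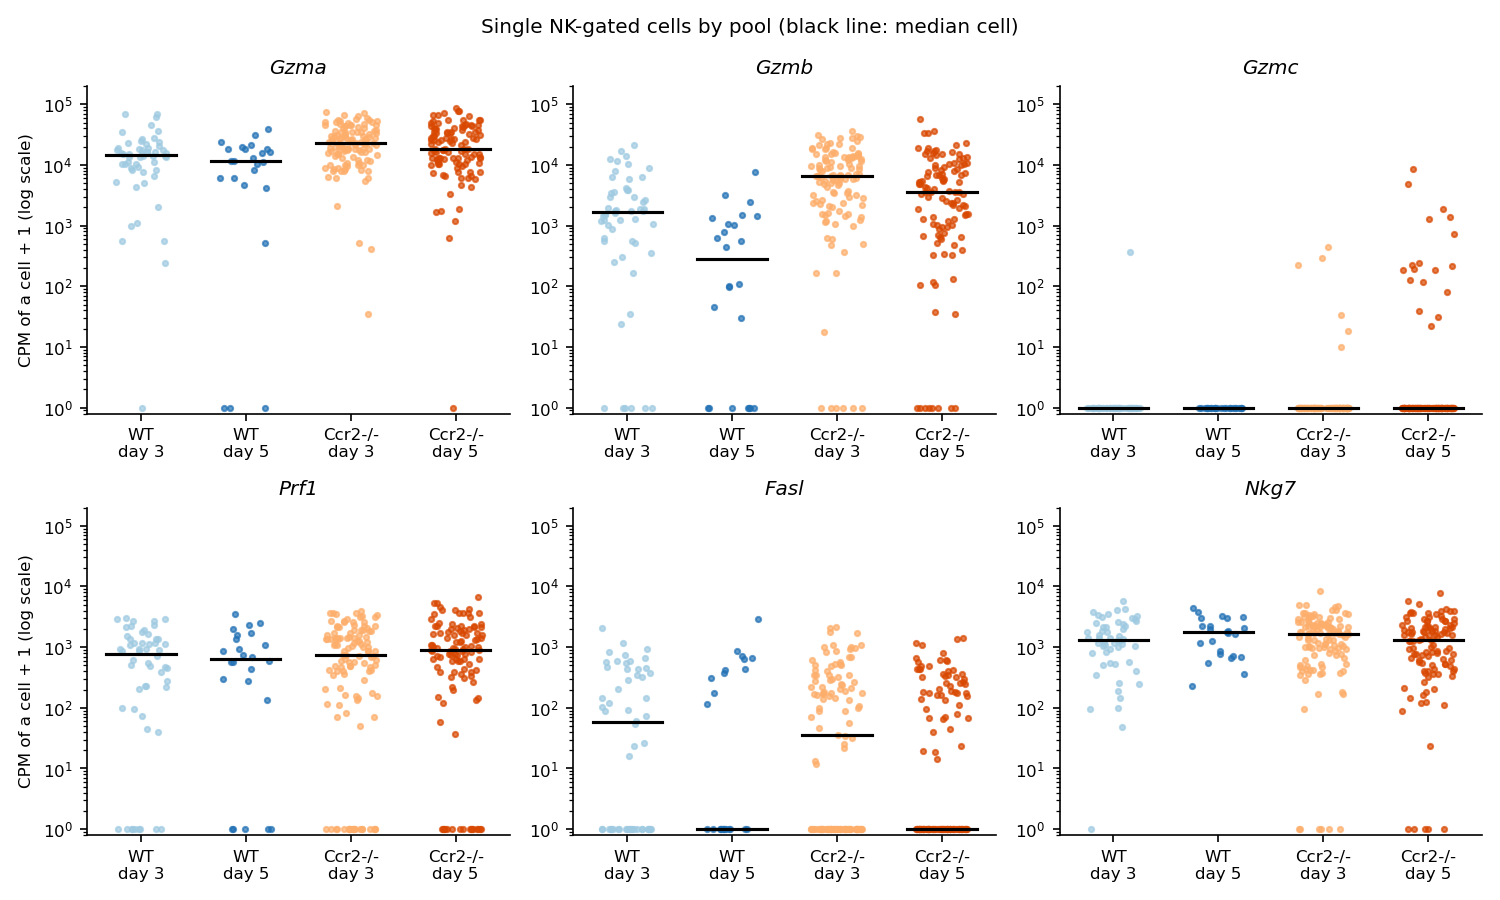
CPM plus 1 (y axis, log scale) of each of the 6 genes in every NK cell, by pool (x axis), with a black line at the median cell. Nearly all cells carry Gzma and Nkg7, Gzmb medians run from 280.4 CPM in WT day 5 to 6592 CPM in Ccr2-/- day 3, and Gzmc is confined to few cells, 18 of them in Ccr2-/- day 5.

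Gzmc belongs to the granzymes of chromosome 14 that strongly activated killer cells are known to express. It was rare. Its NK reads came from 1 cell of WT day 3 (25.6 CPM), none of WT day 5, 6 cells of Ccr2-/- day 3 (9.21 CPM) and 18 cells of Ccr2-/- day 5 (133 CPM, 122 to 145). The 0 of 24 cells in WT day 5 came with an exact 95% Poisson upper limit of 5.69 CPM, where 3 reads would be 4.63 CPM. Its exact 95% interval for the share of cells reached 14.2%. In Ccr2-/- day 5 the share was 16.5% (10.1% to 24.8%), whereas fibroblast-like cells reached at most 0.657%. After thinning to 10000 reads the shares were 2.04%, 0%, 1.85% and 11.6% of NK cells.

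Most NK cells with Gzmc also had a read of a chromosomal neighbour, chiefly in Ccr2-/- day 5. Of the 25 NK cells with a Gzmc read, 17 (68.0%) had a read of Gzmd, Gzme, Gzmf, Gzmg or Gzmn as well, against 9 of the other 279 NK cells (3.23%). Gzmd was read in 13 of the 18 Gzmc cells of Ccr2-/- day 5 and in 4 of its other NK cells, but in Ccr2-/- day 3 in 1 of the 6 Gzmc cells and in 4 others. Gzmb was read in all 18 of the Gzmc cells of Ccr2-/- day 5 and in 92.7% of all its NK cells. In Ccr2-/- day 5, Gzmd was read in 17 NK cells at 191 CPM, Gzmf in 9 at 75.9 CPM and Gzme in 10 at 50.0 CPM. In WT day 5 none of Gzmc, Gzmd, Gzme, Gzmf, Gzmg and Gzmn had a read in an NK cell. These genes share stretches of sequence: 4.14% of the 50-base windows of the Gzmc transcript also occurred in Gzmd, Gzme or Gzmg, and 21.9% of Gzmd, 20.7% of Gzme and 19.8% of Gzmg windows occurred in a neighbour. Their separate levels and their joint detection in a cell are therefore uncertain. No such window was shared for Gzma, Gzmb, Prf1, Fasl and Nkg7. The other lymphocytes that carried Gzmc were few too, since 1 cell of 23 held 349 reads in WT day 3 and 3 cells of 35 held 542 reads in Ccr2-/- day 5. Of the 97 other lymphocytes, 39 lay in the NK cluster without reaching the NK gate, and they held all 901 of these Gzmc reads in 5 cells, and 21512 CPM of Gzma in 36 cells.

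T cells without Trdc carried much less, and most of what they carried lay in a few cells. Gzma stood at 19.4, 618, 7065 and 6466 CPM in the 4 pools, with a read in 4 of 42, 3 of 13, 16 of 58 and 9 of 42 cells. A single cell held 53.2% of the Gzma reads in Ccr2-/- day 3 and 92.3% in Ccr2-/- day 5, and without it the levels were 3656 and 539 CPM. Gzmb stood at 831, 561, 2763 and 2809 CPM, with a read in 40.5%, 38.5%, 32.8% and 35.7% of cells, so that the CPM but not the share of cells was higher in the Ccr2-/- pools. The most loaded cell held 57.7% and 87.8% of the Gzmb reads of Ccr2-/- day 3 and day 5. Without the most loaded cell of each pool Gzmb stood at 690.3, 389, 1293 and 373.5 CPM, so that the genotypes overlapped. Prf1 stood at 35.6, 36.1, 478 and 813 CPM, with 73.7% and 90.6% of the Ccr2-/- reads in 1 cell a pool, and at 15.6, 0, 139 and 83.2 CPM without the most loaded cells. Nkg7 stood at 390 to 662 CPM and Fasl at 8.02 to 46.4 CPM, and both overlapped between the genotypes.

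In edgeR over 8910 genes, Gzma (log2 fold change 5.84 ± 0.80, adjusted p 0.00373), Prf1 (4.14 ± 0.48, adjusted p 0.000859) and Gzmb (2.09 ± 0.25, adjusted p 0.000859) rose in Ccr2-/- T cells without Trdc. They were 3 of the 4 genes called higher, 0.0449% of those tested, and 2 genes were called lower (0.0224%). The other 3 genes, named here after their values were seen, were Irf8 (higher), Ccr2 and Tnc (both lower). Fasl (1.0004 ± 1.99) and Nkg7 (0.05 ± 0.37) had adjusted p values of 0.9999, and Gzmc had too few reads to be tested. By the exact permutation test Gzma, Gzmb and Prf1 each gave p = 0.333, and 18.3% of 6831 genes were higher in both Ccr2-/- pools in these cells.

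These calls rested on T-gated cells that also had NK genes. Of the 155 T cells without Trdc, 22 (14.2%) had the 4 NK genes at 100 CPM or more, 4, 1, 12 and 5 in the 4 pools, and 17 of the 22 lay in the NK cluster. They held 98.7% of the Gzma, 94.6% of the Prf1, 79.2% of the Gzmb, 66.2% of the Nkg7, 97.5% of the Gzmc and 23.2% of the Fasl reads of all T cells without Trdc. Their Gzma stood at 77.8, 5729, 23906 and 26443 CPM. The WT day 5 value is 1 cell, and 1 cell held 53.6% of these reads in Ccr2-/- day 3 and 94.0% in Ccr2-/- day 5. In the other 133 cells Gzma stood at 13.2, 66.6, 82.8 and 150.04 CPM, Gzmb at 811, 462, 513 and 373 CPM, and Prf1 at 39.5, 0, 9.20 and 53.1 CPM. With T gates that also required NK genes under 100 CPM, an alternative chosen after seeing the data, edgeR called 0 genes between the genotypes, and 122 of 8358 had an unadjusted p under 0.05. Gzma then had 1.96 ± 0.98, Gzmb -0.43 ± 0.36 and Prf1 1.03 ± 3.31, each with an adjusted p of 1. With the 5% of barcodes with the highest Scrublet doublet scores left out, the same 3 members were called higher. That rule marked only 11.3% of the barcodes with several hashtags, so that it cannot show the part of doublets in these calls. No member was called with mitochondrial reads allowed up to 10%, with gates at 1 read or at 300 CPM, or with gates on all cells and no clustering, and Gzma alone was called with thinned cells. The part of wells that caught both a T and an NK cell was not tested.

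**Figure D4:**
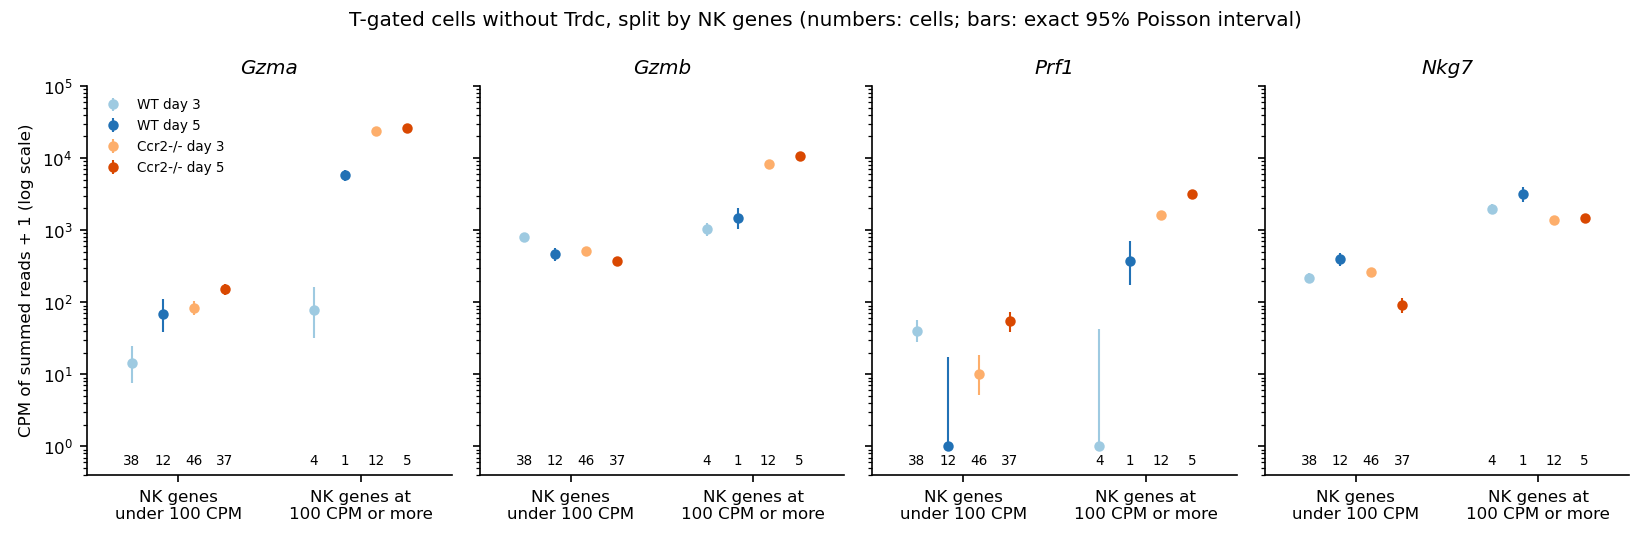
CPM of summed reads plus 1 (y axis, log scale) of 4 genes in T cells without Trdc, split by whether NK genes were under 100 CPM or at 100 CPM or more (x axis), with 1 point per pool, exact 95% Poisson bars and the number of cells printed below each point. Gzma and Prf1 are high in the right-hand cells of the Ccr2-/- pools, which number 12 and 5, while Gzmb of the left-hand cells lies between 373 and 811 CPM in all pools.

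**Figure D5:**
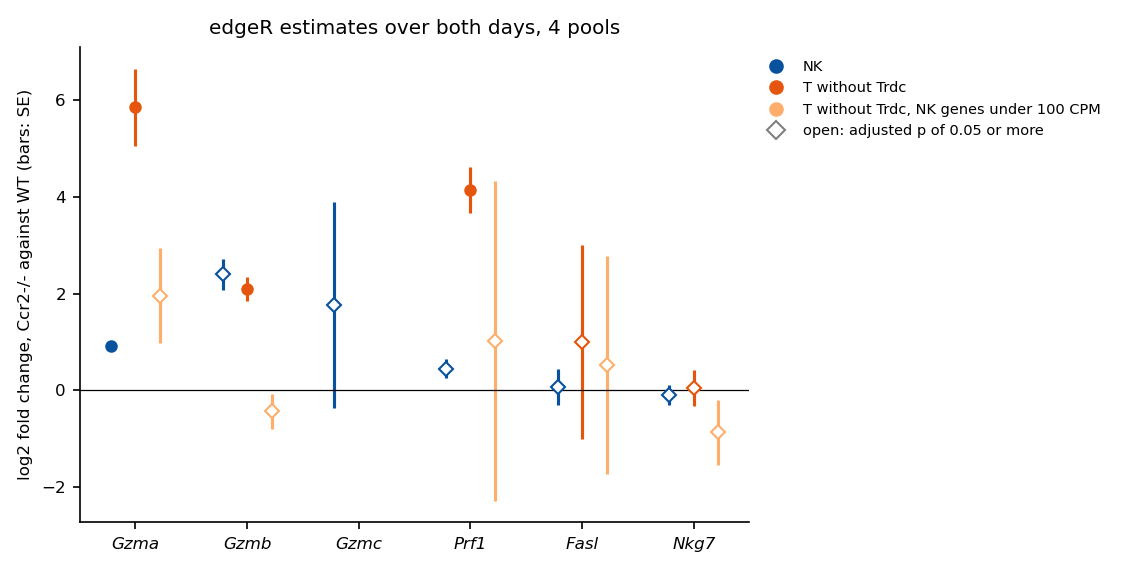
Log2 fold change of Ccr2-/- against WT (y axis) for each gene (x axis) from edgeR over both days, with bars for 1 SE. Filled circles have an adjusted p under 0.05 and open diamonds do not: Gzma is filled in NK cells (blue), and Gzma, Gzmb and Prf1 are filled in T cells without Trdc (dark orange) but open once cells with NK genes are left out (light orange).

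T cells without NK genes still carried Gzmb and Nkg7 in every pool. Over all pools Gzmb stood at 560.3 CPM in these cells, with a read in 41 of 133, and Nkg7 at 213 CPM, with a read in 25 of 133. Gzma stood at 78.8 CPM and Prf1 at 29.4 CPM in the same cells. Among all T cells without Trdc, 32 cells had Cd4 at 100 CPM or more and the CD8 genes (Cd8a and Cd8b1 together) under 100 CPM. These 32 cells held 1119 CPM of Gzmb in 11 cells but 3.98 CPM of both Gzma and Prf1. The 17 cells with the CD8 genes alone at 100 CPM or more held 661 CPM of Gzmb in 10 cells, 701 CPM of Gzma, 993 CPM of Nkg7 and 127 CPM of Prf1. Most T cells without Trdc, 103 of 155, reached 100 CPM of neither, so that these subsets are described and not compared.

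Gamma-delta T cells, 70 in all, also carried most of these reads in a few cells. Gzma stood at 3256, 9072, 547 and 3260.2 CPM, and 1 cell held all of its reads in each WT pool. On each day the Ccr2-/- pool was the lower one, at 0.168 and 0.359 of the WT level, with an edgeR log2 fold change of -1.96 ± 0.51 and an adjusted p of 0.999. Nkg7 stood at 427, 317, 58.3 and 237 CPM, lower in both Ccr2-/- pools than in both WT pools (exact permutation p = 0.333), as were 12.8% of 6576 genes in these cells. In WT day 3, 1 cell held 92.3% of the Nkg7 reads. The 11 gamma-delta T cells with NK genes at 100 CPM or more held 99.5% of the Gzma, 98.6% of the Prf1, 100% of the Fasl, 95.7% of the Nkg7 and 85.0% of the Gzmb reads. No gamma-delta T cell had a Gzmc read, which with 4 to 30 cells a pool left intervals for the share of cells up to 60.2%. Between the genotypes edgeR called none of 5438 genes in either direction (0% of genes), and 145 had an unadjusted p under 0.05 (DESeq2 called 0).

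Between types, NK cells had the highest level of the 3 gated types for Gzma, Gzmb, Fasl and Nkg7 in all 4 pools, and for Prf1 in all but WT day 3. There gamma-delta T cells stood at 1396 CPM, with 99.2% of the reads in 1 cell and 13.7 CPM without it. Types were compared by edgeR over 12 sums with the pool as a block and 9012 genes. NK cells had a higher estimate than T cells without Trdc for Gzma (log2 fold change 3.07 ± 1.15, adjusted p 0.482), Fasl (3.08 ± 0.66, adjusted p 0.0559), Prf1 (2.01 ± 1.09, adjusted p 0.873), Nkg7 (1.498 ± 0.40, adjusted p 0.150) and Gzmb (1.41 ± 0.46, adjusted p 0.359). None of the 5 members tested was called, at a background of 0.0666% of genes called higher in NK cells and 0.599% called lower. By the unadjusted p, 622 genes were under 0.05, and DESeq2 called 336 of 23465 genes, 2 of them members. The T gates that required NK genes under 100 CPM were chosen after seeing the data. They left out the cells that held 98.7% of the Gzma reads of T cells without Trdc. With these gates edgeR called 123 genes, both directions together. Among them Gzma (8.38, adjusted p 1.64e-07), Prf1 (5.70, adjusted p 0.000424), Nkg7 (2.81, adjusted p 0.00743) and Gzmb (2.78, adjusted p 0.0230) were higher in NK cells. Since the gates left out those cells, these calls are not an independent result. With each cell thinned to 10000 reads, all 5 were called higher, where 65 of 5693 genes were called higher and 106 lower. Between gamma-delta T cells and T cells without Trdc no member was called, at 0.0444% of genes called higher and 0.0555% called lower in edgeR. For Nkg7 that comparison gave -1.15 ± 0.42 (adjusted p 0.538) and for Gzmb -1.11 ± 0.48 (adjusted p 0.636).

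Outside the lymphocytes, Gzmb stood far above its fibroblast level in basophil-like and mast cell-like cells. Basophil-like cells, 26, 2, 65 and 61 in the 4 pools, held 305, 169, 1389 and 1874 CPM of Gzmb, with a read in 7, 1, 24 and 19 cells. The most loaded cell held 42.0% to 51.3% of these reads in the 3 pools with more than 2 basophil-like cells. Of all 154 basophil-like cells, 42 had Gzmb at 100 CPM or more, and 7 of the 42 also had a read of an NK or CD3 gene. In NK cells there were 0.186, 0.0557, 0.318 and 0.258 Gzmb reads per Gzma read. In basophil-like cells the ratio was the reverse, with 114 Gzmb reads per Gzma read in WT day 3, 105 in Ccr2-/- day 3 and 53.3 in Ccr2-/- day 5, and in WT day 5 there were 13 Gzmb reads and no Gzma read. Prf1 and Fasl were at most 51.2 and 3.82 CPM in basophil-like cells, and Nkg7 stood at 122 to 195 CPM. The protease gene Mcpt8, which marks basophils, held 8457 CPM in the same cells.

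Mast cell-like cells held 1249, 3459, 236 and 1625 CPM of Gzmb, but in the WT pools this was in effect 1 cell each, with 92.6% and 99.9% of the reads. In the Ccr2-/- pools the most loaded cell held 40.3% and 47.3%. In Ccr2-/- day 5, 1 cell had 1415 of the 2993 reads and another had 1301. The first also had 2 reads of the CD3 gene Cd3e, and the other 2 reads of the NK gene Ncr1. Of 114 mast cell-like cells, 19 had Gzmb at 100 CPM or more, and 9 of them also had a read of an NK or CD3 gene. No mast cell-like cell had a Fasl read. Neutrophil-like cells, by contrast, stood at 3.93 CPM of Gzmb over all pools, near the level of fibroblast-like cells (3.42 CPM). Gzma was high in single cells of other types too. The cell of the dendritic cell-like clusters with most Gzma reads had 2200 of them and 60 reads of the NK gene Ncr1, and the next had 1134 and 18. The Gzmb levels of basophil-like and mast cell-like cells were not tested between the genotypes.

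The genes around the cytotoxic proteins were read from 5 lists of 43 genes in all. Among 11 genes of granule loading, maturation and release, 0 were called higher in NK cells than in T cells without Trdc and 1 was called lower, Srgn, the proteoglycan on which granzymes are packed (log2 fold change -1.42 ± 0.19, edgeR adjusted p 0.00172). Ctsw, a cathepsin of killer lymphocytes, had 1.39 ± 0.32 at an adjusted p of 0.0844. Among 4 serpins that inhibit granzymes none was called, and Serpinb6b had 2.51 ± 0.57 at an adjusted p of 0.0738. Among 10 regulators 1 was called higher, Eomes (3.25 ± 0.65, adjusted p 0.0354), which was also one of the genes of the NK gate, so that its difference was set by the gate. Il2rb, the shared receptor chain for IL-2 and IL-15, had 1.45 ± 0.32 at an adjusted p of 0.0625. Of the 7 other granzymes 1 had enough reads for this test, and it was not called. None of the 11 genes of the death receptor and effector side was called. The median log2 fold change was -0.01 for the granule genes, 2.58 for the serpins, 0.10 for the death receptor side and 0.60 for the regulators, against 0.15 over all genes.

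Between the genotypes none of these lists had a gene called in NK cells, T cells without Trdc or gamma-delta T cells. In NK cells the granule genes had a median log2 fold change of 0.41, the serpins -0.03, the death receptor side 0.01 and the regulators 0.03, against 0.10 over all genes. Srgn stood at 628, 731, 949 and 1082 CPM in NK cells, higher in both Ccr2-/- pools, with an edgeR estimate of 0.62 ± 0.21 and an adjusted p of 1. Serpinb9, the inhibitor that protects killer cells from their own granzyme B, stood at 424, 720.0, 453 and 406 CPM. Tbx21, which encodes the regulator T-bet, stood at 67.7, 194, 99.2 and 96.9 CPM, and Eomes at 469, 800.2, 463 and 419 CPM. Of the other granzymes, Gzmd (3.82 ± 1.18), Gzme (4.12 ± 1.66) and Gzmk (-0.28 ± 1.45) had enough reads for the test, each with an edgeR adjusted p of 1. Gzmk stood at 31.6, 4.63, 8.67 and 13.6 CPM and Gzmm at 0 to 3.08 CPM in NK cells.

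As a description of pattern, the log2(CPM + 1) of each member was correlated with every other gene over 61 sums of cells of 1 type and pool with at least 20 cells, covering 18 types. These sums share 1 library, and no p is attached. The genes most like Gzma were the NK receptor genes Klrc1 (Pearson r = 0.903) and Klrc2 (0.880) and then Fasl (0.875). Prf1 went with Klrc1 (0.945), Ctsw (0.917) and Fasl (0.914), and Fasl with Klrc1 (0.954), Klrc2 (0.948) and Ifng (0.946). Gzmb was most like Nkg7 (0.919), Sytl3 (0.884) and Satb1 (0.873). Nkg7 was most like Trbc1 (0.922), Gzmb (0.919) and Prf1 (0.901). Gzmc, whose sums rested on few cells, gave 0.791 with Ccr8, 0.766 with Gzmd and 0.749 with Gzme.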

How the data were processed

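Ear skin cells of 4 hashtag pools were sequenced as 1 cDNA and 1 hashtag library by TAS-Seq on BD Rhapsody. The deposited values are counts of reads per gene and barcode, which the authors made with Cutadapt and Bowtie2 on Ensembl RNA of GRCm38.p6, as named in the submitters' processing notes. They are reads and not molecules. The Poisson intervals therefore cover the counting of reads only, and not the spread between molecules, cells or mice. The background correction of the methods was not visible, since 22.1% of values above 0 were 1. The hashtag file held 9 further hashtag columns, which were not used. Barcodes went to the highest hashtag (at least 10 reads, 3 times the next), with up to 20% mitochondrial reads and at least 200 genes. Of 8953 barcodes 7118 were kept, 18632 to 48232 reads per cell as pool medians.

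Cells were clustered with scanpy 1.11.5 (2000 variable genes, 30 components, Leiden resolution 1) without the members and granule genes, and cluster names rest on marker transcripts, hence "-like". Scrublet's own limit marked 0.0359% of barcodes, so doublets were not removed. Summed counts were tested with edgeR 4.0.16 (TMM, filterByExpr), and DESeq2 1.42.0 was an alternative. CPM carry exact Poisson and shares exact Clopper-Pearson 95% intervals. Alternatives changed hashtag, mitochondrial and gate limits, clustering, filter, scaling and pools. The scripts were tested on simulated data. The members, the 5 gene lists and the tests were chosen with earlier results of these data known. The genes named were the members, list genes past the test or with the smallest adjusted p (up to 4 a list), other members of the lists as values, and the 3 genes most like each member. Gene positions are from GENCODE M21 and promoters from RefSeq, whose start sites can differ by some bases.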

Additional observations from a re-analysis of the deposited data

Results flagged for a closer look

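The 6 genes were looked at in each of the 3 gated types. For 6 values the Ccr2-/- pool was above the WT pool on one day and below it on the other. The 95% Poisson intervals of the genotypes were apart on both days. The share of all genes that met this rule was not computed, so that no result is read from this count. The difference between the days was not tested, since each genotype and day was 1 pool. In NK cells Gzmc stood at 25.6 CPM (WT) and 9.21 CPM (Ccr2-/-) on day 3 and at 0 and 133 CPM on day 5. The WT day 3 value was 1 of 54 cells (0 CPM without it), and the share of cells with a read was 1.85% in WT and 5.13% in Ccr2-/- on that day. Fasl in NK cells stood at 137 and 194 CPM on day 3 and at 213 and 156 CPM on day 5, and Nkg7 at 1331 and 1522 CPM on day 3 and at 1653 and 1201 CPM on day 5. In T cells without Trdc, Nkg7 stood at 390 and 588 CPM on day 3 and at 662 and 423 CPM on day 5. In gamma-delta T cells Gzmb stood at 509 and 305 CPM on day 3 and at 648 and 1010.1 CPM on day 5, and Prf1 at 1396 and 11.3 CPM on day 3 and at 79.3 and 205 CPM on day 5. The gamma-delta values rest on 4 to 30 cells a pool. In WT day 3, 1 cell held 99.2% of the Prf1 reads (13.7 CPM without it), and in WT day 5, 1 cell held 99.3% of the Gzmb reads (6.31 CPM without it). Fasl also changed order between the days in T cells without Trdc (23.7 and 18.1 CPM, then 8.02 and 46.4 CPM) and in gamma-delta T cells (49.3 and 9.40 CPM, then 28.0 and 67.6 CPM), with overlapping intervals on 1 of the days.

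Barcodes that were given to no pool or failed the filters, 1835 of 8953 with 14.5% of all reads, also held reads of the 6 genes. They held 6.001% of all Gzma reads, 5.28% of Gzmb, 7.06% of Gzmc, 7.28% of Prf1, 11.8% of Fasl and 8.32% of Nkg7 reads, in each case less than their 14.5% of all reads.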

How the results depend on the processing

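Between NK cells and T cells without Trdc, 60 genes were called, against 336 with DESeq2, 200 without a filter on low counts, 171 with thinned cells, 130 with gates at 300 CPM, 114 without clustering, 123 with T gates without NK genes and 31 to 80 without 1 pool. Members called went from 0 to 2 (DESeq2, gates at 300 CPM), 5 (no filter, thinned), 3 (no clustering), 4 (T gates without NK genes), 1 (gates at 1 read, Scrublet) and 0 to 1 without 1 pool. All counts here join both directions. The genes entering this fit numbered 9012 in the main setting, 23465 with DESeq2 and without a filter, and 5693 thinned. They numbered 8778 with gates at 300 CPM, 9874 without clustering and 9968 with gates at 1 read. Without the pool block 68 genes were called, with Fasl as the 1 member, and between gamma-delta T cells and T cells without Trdc still 9. That comparison gave 490 calls with DESeq2, 58 without a filter, 21 thinned, 2 with mitochondrial reads up to 10%, 3 with gates at 1 read, 152 without clustering, 20 with T gates without NK genes and 1 to 3 without 1 pool. Its members called went from 0 to 1 (DESeq2, T gates without NK genes) and 4 (no filter). Between the genotypes in NK cells the 1 call became 15 (DESeq2), 4 (library sizes only), 32 (no filter) and 7 (thinned), with 2 members in each, and 0 genes and 0 members with a hashtag ratio of 10, mitochondrial reads up to 10%, gates at 300 CPM or at 1 read, no clustering and without the highest Scrublet scores. The genes entering numbered 11708 in the main setting and with library sizes only, 21841 with DESeq2 and without a filter, and 8045 thinned. In T cells without Trdc the 6 calls became 17 (no filter), 3 (thinned, no clustering), 1 (gates at 300 CPM) and 0 (mitochondrial limit, gates at 1 read, T gates without NK genes), and the 3 members became 1 (thinned) and 0 (those 3, gates at 300 CPM, no clustering). In T cells without Trdc 8910 genes entered in the main setting and 5552 thinned. In gamma-delta T cells 0 became 1 (hashtag ratio, mitochondrial limit) and 5 (gates at 1 read), with 1 member each at the hashtag ratio (of 4931 genes) and the gates at 1 read (of 6805 genes). With gates at 300 CPM 5 members rather than 3 were higher in both Ccr2-/- pools than in both WT pools in NK cells. The share over all genes was 19.1% at the main gates and was not computed at 300 CPM, so that no result is read from this count.

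The log2 fold change between the genotypes changed sign for Fasl in NK cells (-0.30 thinned, -0.064 without the highest Scrublet scores), for Nkg7 in NK cells (0.0028 DESeq2, 0.094 thinned, 0.013 gates at 1 read), for Gzmb in T cells (-0.16 gates at 300 CPM, -0.43 T gates without NK genes) and for Nkg7 in T cells (-0.023 library sizes only, -0.72 thinned, -0.079 mitochondrial limit, -0.70 gates at 300 CPM, -0.33 gates at 1 read, -0.16 no clustering, -0.15 Scrublet, -0.86 T gates without NK genes). The cause was not tested. Leaving out 1 pool leaves the genotype fits no residual degrees of freedom and was not run there, nor was Scrublet at its own limit.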
